A study of Mus musculus with 12 samples.

Results

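A set of 10 epithelial genes was followed in mouse embryonic fibroblasts (MEFs) with and without RTF2: Lad1, the claudin genes Cldn3, Cldn4, Cldn6 and Cldn7, the keratin genes Krt7, Krt8, Krt18 and Krt19, and Epcam. They are 10 of the 24100 genes in the deposited count table. Lad1 and Cldn4 were chosen by their rise in RTF2-deficient MEFs of both lines, so their values in the comparison of genotypes are given as a description and are not tested. The other 8 were taken as genes of the same epithelial program. RNA was sequenced from 12 libraries in 4 groups of 3. WT MEFs carried Rtf2+/+ and received Cre, and RTF2-deficient MEFs carried Rtf2-/lox and received Cre, so that all 4 groups were transduced. Cre was delivered by a Hit & Run retrovirus 72 hrs before harvest, in SV40-immortalized MEFs. Each genotype was present in 2 lines from different mothers, here line 1 and line 2. The study describes the 3 libraries of a group as technical replicates, so p-values from them measure the spread between libraries of a group, and the 2 lines are the only biological replicates.

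Claudins are membrane proteins whose strands seal the space between neighbouring epithelial cells at tight junctions, and EpCAM is an adhesion protein of the epithelial surface that binds some claudins. Keratins are intermediate filament proteins that assemble from one type I and one type II chain: Krt18 and Krt19 encode type I chains, and Krt7 and Krt8 encode type II chains. Keratins 8 and 18 pair in simple epithelia, and keratins 7 and 19 are typical of ducts and of mesothelium. Lad1 encodes ladinin 1, an anchoring filament protein of epithelia. Fibroblasts are mesenchymal cells, in which repressors such as Zeb1, Zeb2, Snai1 and Snai2 are known to hold epithelial genes low.

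Total counts per library lay between 39360167 and 44695002, so 3 counts, the upper limit that a count of 0 allows, were worth 0.0671 to 0.0762 counts per 1e6 counts in a library (counting error only). Levels are given as counts per 1e6 counts after TMM normalization (CPM). The targeted gene Rtf2 followed the labels: its level was 45.6 ± 1.35 CPM (SD, n = 3) in WT line 1 and 5.79 ± 0.443 CPM (SD, n = 3) in RTF2-deficient line 1, and 53.8 ± 3.52 CPM (SD, n = 3) and 6.49 ± 0.168 CPM (SD, n = 3) in line 2. All 12 fibroblast marker genes examined, among them Col1a1, Vim and Fn1, were counted in every library. WT line 2 stood apart. In its 3 libraries Xist was at most 0.132 CPM and the Y-linked gene Ddx3y at least 91.8 CPM, whereas in the other 9 libraries Xist was at least 102.9 CPM and Ddx3y at most 0.195 CPM. An interferon score, the mean log2 CPM of 10 interferon-stimulated genes, lay between 4.02 and 8.46 in WT line 2, between 0.594 and 3.2 in WT line 1, between 0.299 and 1.62 in RTF2-deficient line 1 and between 1.52 and 6.56 in RTF2-deficient line 2. A summed level of 6 mesothelial marker genes (Msln, Upk3b, Upk1b, Wt1, Lrrn4 and Bnc1) lay between 19.0 and 33.3 CPM in WT line 2, between 2.98 and 8.52 CPM in RTF2-deficient line 2 and at or below 1.67 CPM in all libraries of line 1, where Wt1, a defining gene of mesothelium, had 0 counts in each WT library. Comparisons within line 1 do not use the levels of WT line 2. Within line 2, genotype and the presence of Y-linked transcripts cannot be told apart for any gene, and values over both lines carry this limit in part. In bulk RNA, a change in the number of cells of a type and a change in RNA per cell cannot be told apart.

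RefSeq's promoter entries (GRCm38.p6, of which mm10 is the UCSC name) were matched for 9 of the 10 members, all but Krt19, and are shown for the genes on which the results turn: Lad1 and Cldn4, which were chosen by their rise, Cldn3, the neighbour of Cldn4, and Krt7, whose effect of genotype differed between lines. Each line runs 5′ to 3′ on the strand of the gene, from 250 bases before the annotated start site through its first 20 bases. Capitals mark matches to the E-box CAGGTG, which repressors of the ZEB and SNAI families are known to bind, and to the AP-1 motif TGANTCA.
Lad1 (chr1:135818348-135818617, + strand): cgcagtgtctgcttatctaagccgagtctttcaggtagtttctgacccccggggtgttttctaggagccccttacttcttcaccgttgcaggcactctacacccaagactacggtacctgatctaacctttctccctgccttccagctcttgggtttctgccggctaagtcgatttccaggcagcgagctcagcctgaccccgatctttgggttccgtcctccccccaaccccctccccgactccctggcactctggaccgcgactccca
Cldn4 (chr5:134946915-134947184, − strand): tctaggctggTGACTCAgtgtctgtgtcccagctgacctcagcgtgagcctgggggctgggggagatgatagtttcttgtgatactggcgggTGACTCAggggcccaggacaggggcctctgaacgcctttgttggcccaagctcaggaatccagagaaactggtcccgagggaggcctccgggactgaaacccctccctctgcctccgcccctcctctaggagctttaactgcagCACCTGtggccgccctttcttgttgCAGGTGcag
Cldn3 (chr5:134985964-134986233, + strand): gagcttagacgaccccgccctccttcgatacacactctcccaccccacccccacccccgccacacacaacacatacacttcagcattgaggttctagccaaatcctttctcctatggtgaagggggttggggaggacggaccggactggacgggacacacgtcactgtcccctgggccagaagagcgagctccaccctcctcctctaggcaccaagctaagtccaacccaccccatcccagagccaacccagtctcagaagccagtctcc
Krt7 (chr15:101412153-101412422, + strand): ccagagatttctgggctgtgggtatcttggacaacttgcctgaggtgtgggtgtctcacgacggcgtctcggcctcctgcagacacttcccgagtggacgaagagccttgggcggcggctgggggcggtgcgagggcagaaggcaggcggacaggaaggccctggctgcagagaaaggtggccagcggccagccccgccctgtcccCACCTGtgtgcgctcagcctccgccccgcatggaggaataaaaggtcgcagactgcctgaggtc

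Over the full promoter entries, from 250 bases before to 50 bases after the start site, and on both strands, the E-box was present in 8 of the 9 members matched. The Lad1 entry had no match, and Cldn7 had matches in 1 of its 2 entries. Of all 32851 promoter entries, 20.2% held an E-box. Cldn4, Cldn6, Cldn7 and Epcam held 2 E-boxes in 1 entry, and 2.88% of all entries held 2 or more. In the Cldn4 entry these lay 14 to 9 bases before the start site and at bases 12 to 17 after it, and the E-box of Cldn3 lay at bases 32 to 37, beyond the stretch shown. The AP-1 motif was present in Cldn4 alone among the members, with 2 matches. It was present in 7.81% of all entries, and 0.46% held 2 or more. The motif AACCGGTT, bound by Grainyhead-like factors, was in 0 of the 9 members and in 0.146% of all entries. No match overlapped another. These are descriptions of letters in the reference and say nothing of binding in these cells.

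The 10 members took between 0.00433% and 0.0181% of all counts in a library, and Krt7 and Krt19 together made up 71.1% to 94.0% of the members' counts. On a scale that divides by transcript length (CPM per kb, over the exons of the RefSeq-paired GENCODE transcript within RefSeq's gene span), Krt19 and Krt7 had the highest mean levels over the 12 libraries, at 32.3 and 26.8 CPM per kb. Krt18 followed at 3.55 CPM per kb and Lad1 at 1.83 CPM per kb. The mean levels of the others, again in CPM per kb, were 0.338 for Cldn7, 0.273 for Cldn3, 0.0991 for Cldn4, 0.0859 for Epcam, 0.0856 for Krt8 and 0.00253 for Cldn6. The ratio of Krt7 to Krt19 ran from 0.0604 to 1.52 per kb across libraries, so these neighbours in the order had no fixed rank, and the ranges of Cldn4, Epcam and Krt8 overlapped. The transcript of Krt7 is annotated with a longer 3′ end in GENCODE, over which its level per kb would be lower. Claudins and keratins are families of related genes, and how the counting treated reads that match more than one of them is not given in the sources used here.

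**Figure D1:**
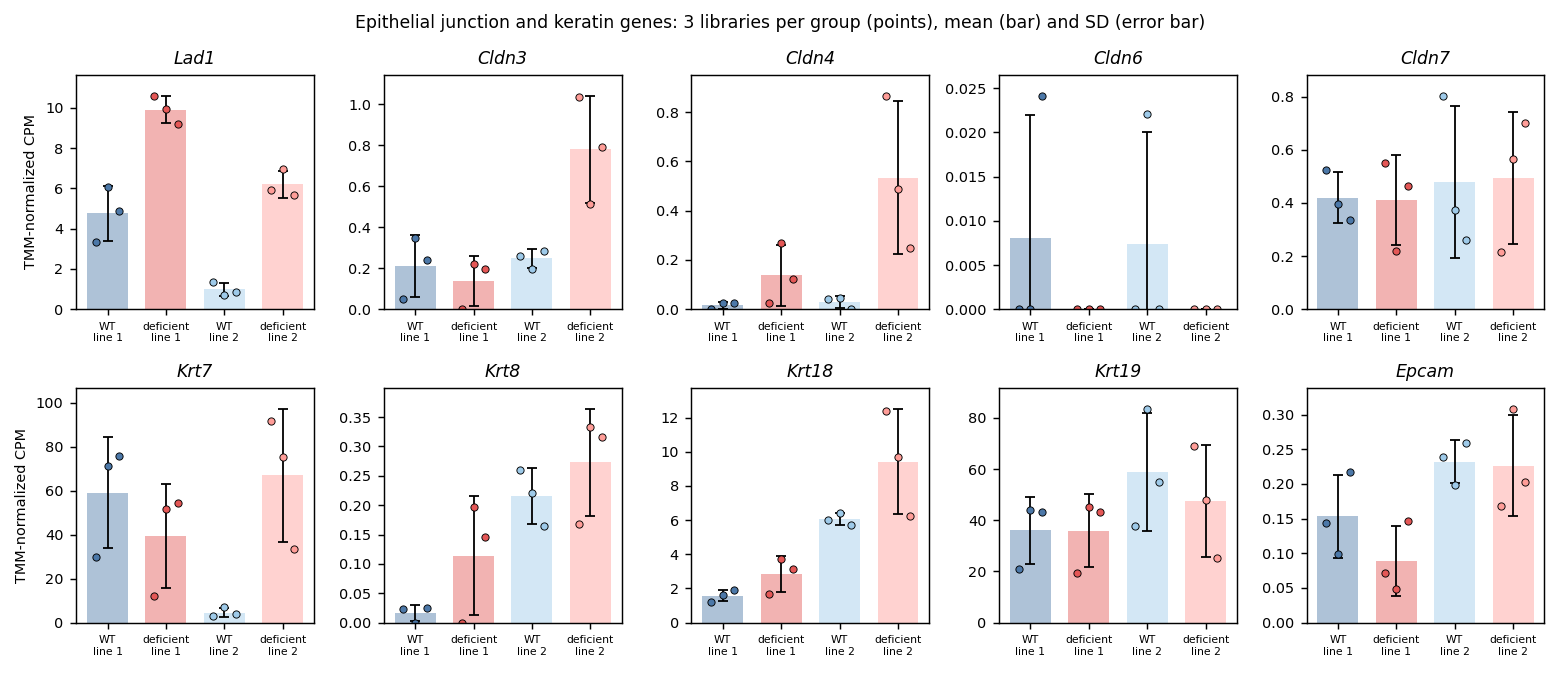
Level of each of the 10 genes in each library, in TMM-normalized CPM on an axis that starts at 0 and differs between panels. Points are the 3 libraries of a group, bars are group means and error bars are SD. Lad1 is higher in RTF2-deficient than in WT libraries of each line, Krt7 has its lowest group mean in WT line 2, and Cldn6 has a single count in each of 2 libraries.

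Lad1 (Entrez Gene 16763, chromosome 1 from 135818598 to 135833341) was counted in every library. Its level was 3.32, 6.07 and 4.90 CPM in the libraries of WT line 1 and 10.6, 9.96 and 9.21 CPM in those of RTF2-deficient line 1. In line 2 it was 1.37, 0.727 and 0.874 CPM in WT and 5.92, 6.98 and 5.69 CPM in RTF2-deficient MEFs. Within each line, every RTF2-deficient library lay above every WT library, but the ranges of the genotypes overlapped when lines were pooled, because WT line 1 reached into the range of RTF2-deficient line 2. The log2 fold change, RTF2-deficient over WT, was 1.06 (standard error, SE, 0.239) in line 1, 2.64 (SE 0.262) in line 2 and 1.8 (SE 0.294) over both lines. WT line 2 lay 2.26 below WT line 1 on the log2 scale (−2.26, SE 0.261), and RTF2-deficient line 2 lay below RTF2-deficient line 1 by less (−0.68, SE 0.236). The larger fold in line 2 stood beside the lower WT level of the 2 lines, not beside a higher RTF2-deficient level.

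RefSeq lists 5 other genes within 100 kb of Lad1, and all 5 were tested. They were examined with the values of Lad1 known. Pkp1, which encodes the desmosomal protein plakophilin 1, was higher in RTF2-deficient MEFs over both lines (1.02 on the log2 scale, SE 0.170, edgeR adjusted p = 0.00218), although it lost the call without the line term (0.97, adjusted p = 0.314) and with triplicates summed (1.02, adjusted p = 0.102). So was Tnnt2, the gene of cardiac troponin T, which is the next gene after Lad1 (1.32, SE 0.312, adjusted p = 0.0163), and it lost the call with triplicates summed (1.33, adjusted p = 0.267), without the line term (1.1, adjusted p = 0.117) and with the interferon score as a term (0.97, adjusted p = 0.0447). Tnni1, the gene of slow skeletal troponin I on the other side, stood at 0.72 (adjusted p = 0.0320), below the fold threshold of 1. Csrp1 (0.17, adjusted p = 0.216) and Phlda3 (−0.053, adjusted p = 0.708) did not pass. Within line 1, Pkp1 stood at 0.92 (adjusted p = 0.0756), Tnni1 at 0.65 (adjusted p = 0.334) and Tnnt2 at 0.57 (adjusted p = 0.440). In line 2 Tnnt2 (2.12, adjusted p = 0.00155) and Pkp1 (1.12, adjusted p = 0.0142) passed both. Whether these differences are linked to that of Lad1 was not tested.

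**Figure D2:**
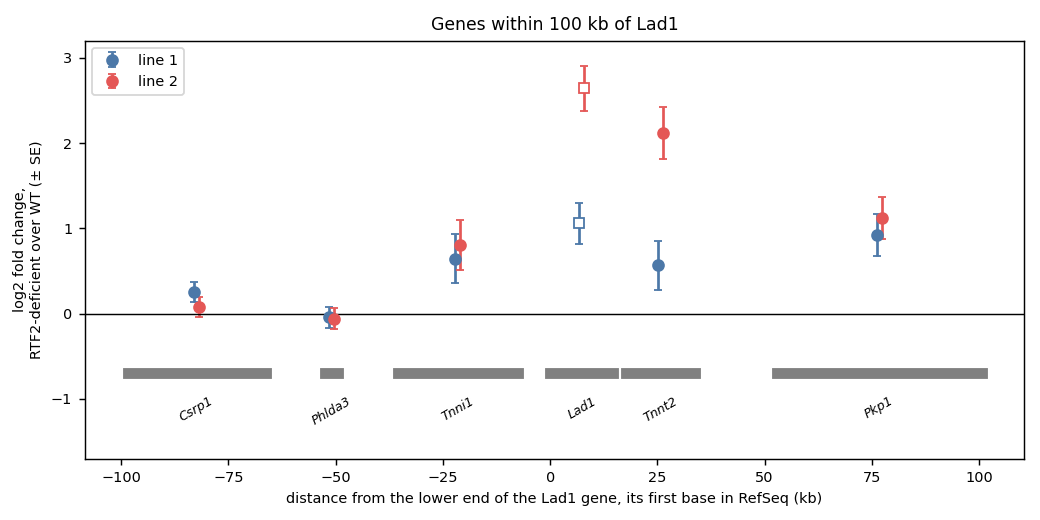
Log2 fold change, RTF2-deficient over WT, of the genes within 100 kb of Lad1 against the distance of each gene's middle from the start of Lad1 in kb. Blue is line 1, red is line 2, error bars are SEs, grey bars show the extent of each gene, and open squares are Lad1, which was chosen by its rise. Pkp1 lies near 1 in both lines, at 0.92 and 1.12, whereas Tnnt2 lies at 0.57 in line 1 and at 2.12 in line 2.

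Cldn4 (Entrez Gene 12740, chromosome 5 from 134945123 to 134946934) encodes claudin 4, a tight junction protein of simple epithelia, and rested on few reads. It had 0, 1 and 1 counts in the libraries of WT line 1 and 1, 11 and 5 in those of RTF2-deficient line 1. In line 2 it had 2, 2 and 0 counts in WT and 36, 19 and 11 in RTF2-deficient MEFs. In line 2 every RTF2-deficient library had more counts than every WT library, while in line 1 replicate 1 of the RTF2-deficient group, with 1 count, lay within the range of the WT libraries. Summed over a group and divided by depth, the ratio was 8.50 in line 1 (17 against 2 counts, exact 95% interval 2.02 to 75.9) and 17.7 in line 2 (66 against 4 counts, 6.59 to 66.8). These intervals cover counting error only and, since Cldn4 was chosen by this rise, are no test of it. The highest group mean, in RTF2-deficient line 2, was 0.534 ± 0.311 CPM (SD, n = 3). With the interferon score as a term in the fit, an alternative chosen after seeing the data, the log2 fold change of Cldn4 was smaller. It was 2.53 in line 1, 3.06 in line 2 and 2.87 over both lines, against 2.88, 4.03 and 3.66 without the term.

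Cldn3 (Entrez Gene 12739, chromosome 5 from 134986214 to 134987476), another claudin of simple epithelia, lies 39279 bases from Cldn4. It had 2, 14 and 10 counts in WT line 1 and 0, 9 and 8 in RTF2-deficient line 1. In line 2 it had 12, 9 and 12 counts in WT and 43, 20 and 35 in RTF2-deficient MEFs. The groups of line 1 overlapped, and those of line 2 did not. The log2 fold change was −0.60 (SE 0.816) in line 1 and 1.65 (SE 0.671) in line 2, where it did not pass the test (edgeR adjusted p = 0.135). With a replicate block for the libraries of line 1 alone, an alternative chosen after seeing the data, it passed in line 2 (1.65, adjusted p = 0.0210). That block has no term for line 2, so the fold there was unchanged. The lower adjusted p reflects the spread estimated over libraries of both lines, and adds no evidence from line 2. In line 1 Cldn3 was lower in the RTF2-deficient library of all 3 same-numbered pairs without passing (−0.68, adjusted p = 0.588). The share of all genes with such agreement of pairs is not given here. The last bases of Cldn3 overlap Wbscr25 in RefSeq, and whether the counting used strand is not given. RefSeq lists 12 genes within 100 kb of Cldn4 or Cldn3, both included. Of the others, 2 had an adjusted p under 0.05 over both lines, both lower. Abhd11, a gene of a mitochondrial hydrolase, had a log2 fold change of −0.41 (adjusted p = 0.00831), and Mettl27 of −0.82 (adjusted p = 0.0238).

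Cldn7 (Entrez Gene 53624, chromosome 11 from 69964779 to 69967886), which encodes a claudin that also lies along the lateral membrane, did not separate the genotypes in either line. It had 22, 16 and 14 counts in WT line 1, 23, 9 and 19 in RTF2-deficient line 1, 37, 17 and 11 in WT line 2 and 9, 22 and 31 in RTF2-deficient line 2. Its log2 fold change over both lines was 0.0062 with a 95% interval from −0.69 to 0.70. Cldn6 (Entrez Gene 54419, chromosome 17 from 23679348 to 23682446), a claudin of embryonic epithelia, had 2 counts in all, 1 in WT line 1 replicate 3 and 1 in WT line 2 replicate 2, and was at 0 in the other 10 libraries. It did not pass the filter on low counts and was not tested. Epcam (Entrez Gene 17075, chromosome 17 from 87635979 to 87651127) had 6, 4 and 9 counts in WT line 1, 3, 2 and 6 in RTF2-deficient line 1, 11, 9 and 11 in WT line 2 and 7, 12 and 9 in RTF2-deficient line 2. The groups overlapped in both lines. In line 1 the RTF2-deficient library was the lower in all 3 same-numbered pairs, and the test did not pass (−0.79, adjusted p = 0.498 with the replicate block in line 1). Its log2 fold change over both lines was −0.34 with a 95% interval from −0.96 to 0.29.

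Krt8 and Krt18, which encode the partner keratins of simple epithelia, lie 23873 bases apart on chromosome 15, but their levels were far apart. Krt18 (Entrez Gene 16668, chromosome 15 from 102028216 to 102032026) had 51 to 514 counts per library, and Krt8 (Entrez Gene 16691, chromosome 15 from 101996711 to 102004342) had 0 to 14. The level of Krt18 was 1.22, 1.61 and 1.88 CPM in WT line 1 and 1.67, 3.73 and 3.12 CPM in RTF2-deficient line 1. In line 2 it was 6.03, 6.39 and 5.69 CPM in WT and 12.4, 9.67 and 6.21 CPM in RTF2-deficient MEFs. The groups overlapped in both lines, each through 1 RTF2-deficient library, replicate 1 in line 1 and replicate 3 in line 2. The log2 fold change of Krt18 was 0.85 (SE 0.316) in line 1, 0.64 (SE 0.296) in line 2 and 0.74 (SE 0.211) over both lines. The last had an edgeR adjusted p of 0.0381 with a fold below the threshold of 1, and the adjusted p ran from 0.0130 to 0.104 with 1 library left out and was 0.0575 with a replicate block over both lines, 0.161 with the interferon score as a term (0.48), 0.174 with triplicates summed and 0.482 without the line term. In line 1 Krt18 was higher in the RTF2-deficient library of all 3 same-numbered pairs.

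Krt8 had 1, 0 and 1 counts in WT line 1 and 0, 8 and 6 in RTF2-deficient line 1. In line 2 it had 12, 10 and 7 counts in WT and 7, 13 and 14 in RTF2-deficient MEFs. The ratio of summed counts per depth was 7.0 in line 1 (14 against 2 counts, exact 95% interval 1.61 to 63.5) and 1.26 in line 2 (34 against 29 counts, 0.743 to 2.14). The groups overlapped in both lines. Neither line passed edgeR's test, with adjusted p = 0.284 in line 1 and 0.775 in line 2.

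Krt7 (Entrez Gene 110310, chromosome 15 from 101412403 to 101427806), the type II keratin of ducts and mesothelium, passed the test of genotype in line 2 and not in line 1. In line 2 its level was 2.89, 6.92 and 3.80 CPM in WT and 92.0, 75.5 and 33.5 CPM in RTF2-deficient MEFs, so that every RTF2-deficient library lay above every WT library. The log2 fold change there was 3.88 (SE 0.642, edgeR adjusted p = 0.00327). In line 1 the level was 29.99, 71.5 and 75.7 CPM in WT and 12.3, 51.8 and 54.5 CPM in RTF2-deficient MEFs. These groups overlapped, and the RTF2-deficient library was the lower in all 3 same-numbered pairs. The log2 fold change was −0.58 (SE 0.564, adjusted p = 0.759), and −0.73 (adjusted p = 0.423) with the replicate block in line 1. The difference between the lines in the effect of genotype was itself past both thresholds (4.46 on the log2 scale, line 2 minus line 1, SE 0.843, edgeR interaction test, adjusted p = 0.0314). That call was lost in 8 of the 12 fits with 1 library left out (replicate 2 or 3 of either line 1 group, replicate 1 or 3 of WT line 2, or replicate 1 or 2 of RTF2-deficient line 2), with adjusted p between 0.0541 and 0.0907. Over all 12 of these fits the difference ran from 4.04 to 4.91. The group mean was 4.54 ± 2.12 CPM (SD, n = 3) in WT line 2 and between 39.5 and 67.0 CPM in the other 3 groups. RTF2-deficient line 2 did not differ from RTF2-deficient line 1 by the test (0.76, SE 0.565, adjusted p = 0.642). WT line 2 is also the group with Y-linked transcripts and the highest mesothelial sum. Within line 2, genotype and the presence of Y-linked transcripts cannot be told apart, and the part of mesothelial cells was not tested. With the interferon score as a term in the fit, an alternative chosen after seeing the data, the log2 fold change of Krt7 in line 2 was 2.95 (adjusted p = 0.00177), and the difference between RTF2-deficient lines passed both thresholds (1.73, adjusted p = 0.0345).

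Krt19 (Entrez Gene 16669, chromosome 11 from 100140810 to 100145926), the smallest type I keratin, overlapped between genotypes in both lines. The level was 21.0, 44.1 and 43.3 CPM in WT line 1, 19.3, 45.1 and 43.4 CPM in RTF2-deficient line 1, 37.9, 83.4 and 54.8 CPM in WT line 2 and 69.2, 48.1 and 25.3 CPM in RTF2-deficient line 2. The log2 fold changes were −0.0089 (95% interval −0.88 to 0.86) in line 1 and −0.31 (−1.17 to 0.56) in line 2, and the SD within each group was larger than the difference between the group means of a line. The ratio of the level of Krt7 to that of Krt19 (CPM per kb) was 0.0604 to 0.0723 in WT line 2 and 0.554 to 1.52 in the other 9 libraries.

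Across the 7 members tested other than Lad1 and Cldn4, 0 were called over both lines by edgeR (adjusted p under 0.05, and more than 1 on the log2 scale in either direction), where 0.505% of all 14263 genes tested were called higher and 1.22% lower. At an unadjusted p under 0.05, edgeR gave 1 of the 7 (Krt18) and DESeq2 gave 2 (Krt7 and Krt18), and DESeq2 called 0 as well. The share of all genes at that unadjusted cut is not given here, so counts at it cannot be read against a background. Of the 7, 5 had a log2 fold change above 0, and their median was 0.72, against 0.00194 over all genes tested. Within the lines, 2 of the 7 were above 0 in line 1, with a median of −0.029 (0.00593 over all genes), and 5 in line 2, with a median of 0.33 (−0.00334 over all genes). In line 1, 0 of the 7 were called, against 0.259% of all genes higher and 0.659% lower. There both edgeR and DESeq2 gave 2 members (Krt8 and Krt18) at an unadjusted p under 0.05, and DESeq2 called 0. In line 2, 1 of the 7 was called, Krt7, higher, against 1.73% of all genes higher and 2.05% lower. The effect of genotype differed between lines in 1 of the 7, again Krt7, against 1.05% of all genes in either direction. A single call among 7 gives no share that can be read against the background.

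**Figure D3:**
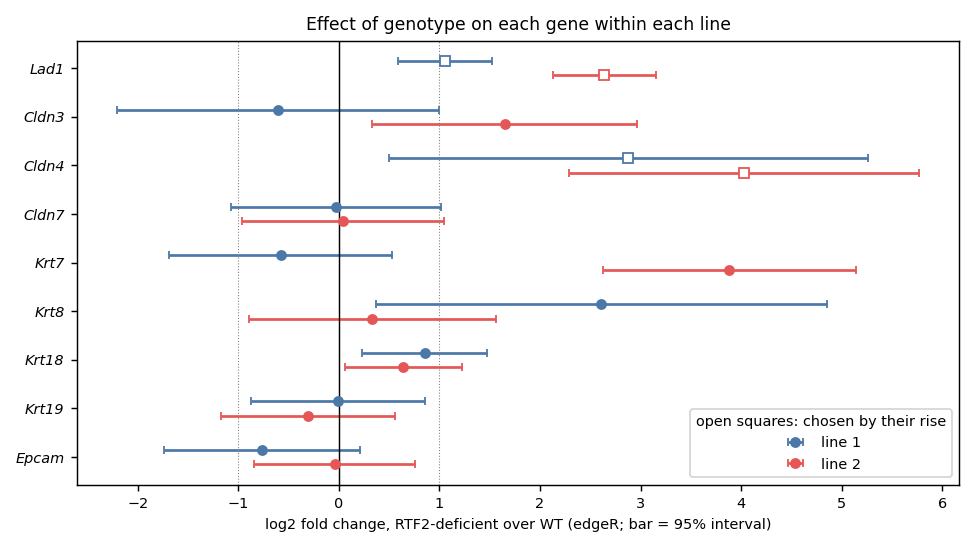
Log2 fold change, RTF2-deficient over WT, of 9 members within line 1 (blue) and line 2 (red), from edgeR's quasi-likelihood fit. Bars are 95% intervals by a normal approximation from the SE, and dotted lines are the fold thresholds of −1 and 1. Open squares are Lad1 and Cldn4, which were chosen by their rise. Cldn6 is left out because it was not tested. The intervals of Krt7 in the lines do not overlap, at −0.58 and 3.88, while those of Krt18, Krt19, Cldn7 and Epcam overlap widely.

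In WT MEFs, 3 of the 7 members tested differed between line 2 and line 1: Krt8 and Krt18 were higher in line 2, where 3.89% of all genes were, and Krt7 was lower, as were 2.87% of all genes. Krt18 was higher by 1.94 on the log2 scale (SE 0.316, edgeR adjusted p = 0.00213), with no overlap between the groups. Krt7 was lower (−3.70, SE 0.637, adjusted p = 0.00304), by less with the interferon score as a term (−2.16, adjusted p = 0.0208). Krt8 had 29 counts in WT line 2 and 2 in WT line 1, a ratio of 13.4 per depth (exact 95% interval 3.39 to 116, adjusted p = 0.0333). Its call was lost in 6 of the 12 fits with 1 library left out, each time one of the 6 WT libraries, with adjusted p between 0.0545 and 0.113. With the interferon score as a term, Krt8 was not called (3.26, adjusted p = 0.0822), and Krt19 was called higher in WT line 2 (2.03, adjusted p = 0.00111, against 0.70 and 0.346 without the term). In RTF2-deficient MEFs, 1 of the 7 members differed between lines, Krt18, higher in line 2 (1.73, SE 0.307, adjusted p = 0.0157), where 0.834% of all genes were higher and 0.449% lower. Without RTF2-deficient line 2 replicate 1 its adjusted p was 0.0637, and without replicate 2 of that group it was 0.0652. The 2 comparisons between lines share no library. Cldn3 (2.48, adjusted p = 0.139) and Epcam (1.31, adjusted p = 0.223) had higher levels in every library of RTF2-deficient line 2 than in line 1 and did not pass in edgeR's test. With the replicate block in line 1, Cldn3 passed (3.09, adjusted p = 0.00796) and Epcam did not (1.42, adjusted p = 0.0972).

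Genes listed around the members differed between the WT lines in the same comparison, in which 3.89% of all genes were called higher and 2.87% lower. These lists were set with earlier results of the data known, and the genes named here for this comparison were picked after their values were seen. Of 11 epithelial regulators tested, 5 were higher in WT line 2 (among them Tfap2a, Elf3 and Trp63, transcription factors of surface epithelia), and the median log2 difference was 1.22 against 0.0152 over all genes. Of 19 desmosome and hemidesmosome genes, 5 were higher (among them Dsg2, Ppl and Pkp3) and 1 was lower (Pkp1, −1.97, edgeR adjusted p = 0.000474), with a median of 1.05. Of 8 epithelial surface genes, 3 were higher (Spint2, St14 and Spint1, a membrane protease and its inhibitors), of 10 tight junction genes, 2 (Cgn and Pard6b), and of 6 other keratin genes, 2 (Krt16 and Krt17, keratins of activated epidermis). Among the libraries of WT line 2, Krt16 ran from 7 to 121 counts and Krt17 from 10 to 114. Both went with the interferon score within groups (r = 0.82 and 0.91). Of 6 mesothelial markers, 5 were higher (Msln, Upk1b, Wt1, Lrrn4 and Bnc1), with a median of 4.52. None of 12 fibroblast markers and none of the 4 repressors passed both thresholds in this comparison, and their medians were −0.27 and −0.38. At an unadjusted p under 0.05, edgeR gave 6 of the 12 and 1 of the 4, without the share of all genes at that cut. DESeq2 called 1 of the 12 and 0 of the 4. Of 3 markers of other cells tested among 8 listed, Tubb3 and Myod1 were lower in WT line 2. The summed fibroblast level lay between 19560 and 21760 CPM in WT line 2 and between 23170 and 30320 CPM in WT line 1. The share of mesothelial or other epithelial cells in the difference between lines was not tested.

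**Figure D4:**
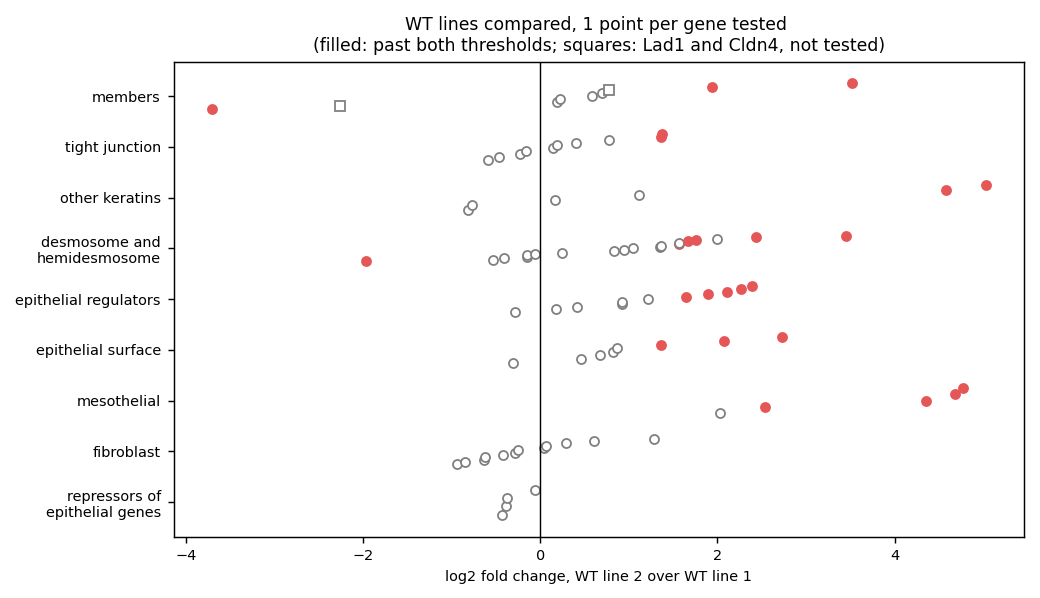
Log2 fold change, WT line 2 over WT line 1, with 1 point per gene tested in each list; filled points passed both thresholds in edgeR's test, and squares are Lad1 and Cldn4, which are shown without a test. Cldn6 was not tested, and Wt1 is left out because it had no count in WT line 1. Filled points lie mostly to the right for regulators, desmosome and mesothelial genes, and among the members Krt7 lies at −3.70 and Krt18 at 1.94.

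For the effect of genotype over both lines, 0.505% of all genes were called higher and 1.22% lower, and calls in the same lists were single genes or none, apart from the mesothelial markers. Of 19 desmosome and hemidesmosome genes, 1 was higher, Pkp1, the neighbour of Lad1 given above. It lost its call without WT line 1 replicate 2, WT line 2 replicate 2, RTF2-deficient line 2 replicate 2 or RTF2-deficient line 2 replicate 3, its fold lying near the threshold. The most abundant genes of the list, Plec (0.19, adjusted p = 0.407) and Dst (0.11, adjusted p = 0.700), did not pass. None of 10 tight junction genes tested of 22 listed passed both thresholds in edgeR's test, and 2 had an adjusted p under 0.05. The most abundant were Tjp1, a scaffold of tight junctions (0.19, adjusted p = 0.0485), and Cgnl1 (0.28, adjusted p = 0.340). None of 6 other keratin genes tested of 13 listed passed, with Krt80 at 0.66 (adjusted p = 0.359) and Krt10 at 0.071 (adjusted p = 0.726). None of 11 regulators passed, with Klf4 at −0.31 (adjusted p = 0.140) and Klf5 at 0.22 (adjusted p = 0.422). None of 8 surface genes passed, with Cd24a at 0.24 (adjusted p = 0.182) and St14 at −0.42 (adjusted p = 0.470). Counts at an unadjusted p under 0.05 are again given without the share of all genes at that cut. There edgeR gave 3 of the 10 tight junction genes, 1 of the 6 keratin genes, 2 of the 11 regulators, 2 of the 8 surface genes, 3 of the 12 fibroblast markers and 0 of the 4 repressors. DESeq2 called 0 in each of these lists. The median log2 fold changes were 0.14, 0.12, −0.15, −0.32, −0.20 and −0.0083 in that order, and 0.11 for the desmosome and hemidesmosome genes. Leaving out a library added Krt20 to the keratins called (without RTF2-deficient line 1 replicate 2), Muc1 to the surface genes (without RTF2-deficient line 1 replicate 1), and Pdgfra to the fibroblast markers (without WT line 1 replicate 2 or RTF2-deficient line 1 replicate 1).

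The 4 repressors of epithelial genes were at 40.6 CPM (Snai2) or more in every library. Zeb1 had 97.3 to 116.7 CPM across the 12 libraries and stood at 0.033 on the log2 scale (SE 0.0454, edgeR adjusted p = 0.674), and Zeb2 at 0.12 (adjusted p = 0.527). In line 1 Zeb2 was at 74.7 to 77.96 CPM in WT and at 59.7 to 75.9 CPM in RTF2-deficient MEFs (−0.18, adjusted p = 0.591). In line 2 it was at 54.0 to 66.9 CPM in WT and at 70.8 to 88.9 CPM in RTF2-deficient MEFs, without overlap, and its log2 fold change of 0.42 (adjusted p = 0.0377) was below the fold threshold. Snai1 (−0.049, adjusted p = 0.898) and Snai2 (−0.094, adjusted p = 0.707) did not pass either. The 12 fibroblast markers held 0 calls, and 2 had an adjusted p under 0.05, Prrx1 (−0.47, adjusted p = 0.00151) and Twist1 (−0.27, adjusted p = 0.0340), both lower and below the fold threshold. These 2 were picked after their values were seen. The most abundant, Fn1 (0.27, adjusted p = 0.221) and Col1a1 (0.014, adjusted p = 0.960), did not pass. Of the 6 mesothelial markers, 2 were lower in RTF2-deficient MEFs, where 1.22% of all genes were. Msln, the gene of mesothelin, changed by −2.18 on the log2 scale (SE 0.404, adjusted p = 0.00429), with 15.5 to 28.9 CPM in WT line 2 and 1.69 to 6.76 CPM in RTF2-deficient line 2. Bnc1 changed by −1.30 (SE 0.362, adjusted p = 0.0327) on 20 to 26 counts in WT line 2 and at most 8 in any other library. Within line 1 neither passed, at −1.35 (adjusted p = 0.334) and −0.13 (adjusted p = 0.959), and the other 4 markers were above 0 there, also without passing. The median of the 6 was 0.78 in line 1, −1.95 in line 2 and −0.99 over both lines. Within line 2, 3 of the 6 were called lower, among them Msln (−2.63, adjusted p = 0.00459) and Bnc1 (−1.94, adjusted p = 0.00386), where 2.05% of all genes were. Any link to the level of Krt7 was not tested. Over both lines, the call of Msln was kept with each library left out, and that of Bnc1 was lost without any 1 library of WT line 2 or of RTF2-deficient line 2, or without RTF2-deficient line 1 replicate 3, with adjusted p between 0.0613 and 0.106. Both lost it without the line term (adjusted p = 0.184 for Msln and 0.136 for Bnc1) and with triplicates summed (0.162 and 0.352). Bnc1 also lost it with a replicate block over both lines (adjusted p = 0.0569), without the filter on low counts (0.0553) and with the interferon term (0.0668), and DESeq2 gave it no adjusted p.

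Within groups, the libraries that differed in the interferon score also differed in the level of 3 of the keratin members. In all 4 groups, the library with the highest score had the lowest level of Krt7 and of Krt19, and in 3 of the 4 that of Krt18. After subtraction of each group's mean, Pearson's r with the score over 12 libraries was −0.78 for Krt7, −0.90 for Krt19 and −0.66 for Krt18, and the other keratins examined, all picked after their values were seen, went both ways, with −0.86 for Krt80, 0.82 for Krt16 and 0.91 for Krt17. Dsp, the gene of desmoplakin picked in the same way, had 0.84. For Cldn7 it was 0.72, and for Cdh1, the gene of E-cadherin, 0.85, and both were highest in the library with the highest score in all 4 groups. Lad1 (0.11) and Cldn3 (−0.31) had weaker relations. Krt7 and Krt19 moved together within groups (r = 0.97), as did Krt7 and Krt18 (0.91) and Krt18 and Krt19 (0.88). These are descriptions over libraries that share a group and its depth, each centred on 3 values. Without RTF2-deficient line 2 replicate 3, the library of that group with the highest score, the log2 fold change of Krt19 in line 2 was 0.012, and with the score as a term in the fit it was −1.14 (edgeR adjusted p = 0.0102), against −0.30 (adjusted p = 0.472) in line 1.

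**Figure D5:**
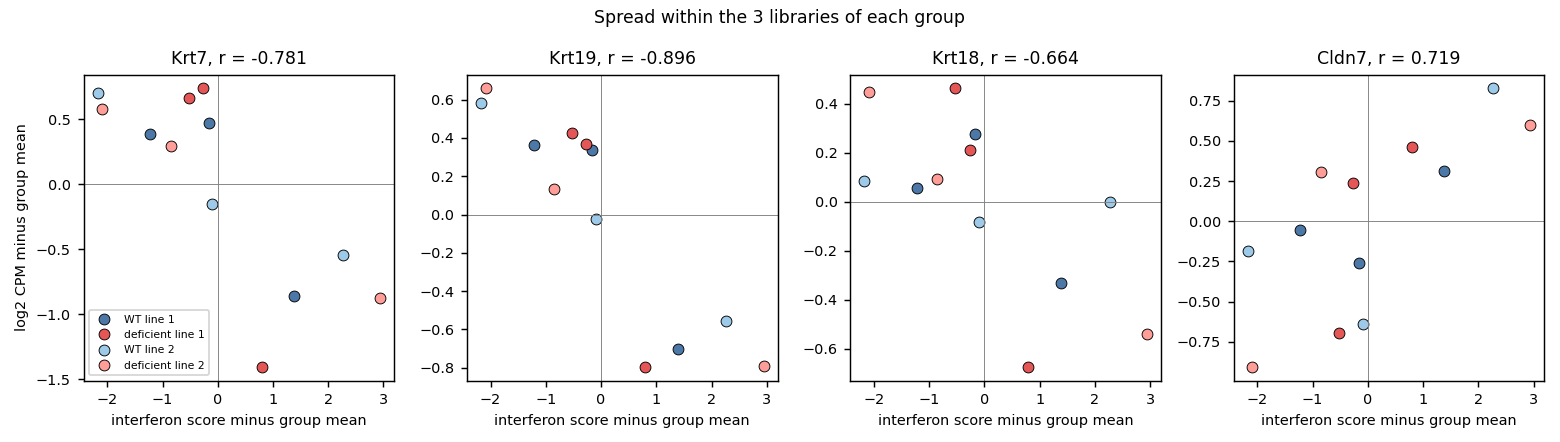
Deviation of Krt7, Krt19, Krt18 and Cldn7 from their group means (log2 CPM, prior count 2) against the deviation of the interferon score, with 1 point per library and 1 colour per group. Pearson's r over the 12 points stands above each panel. The 3 keratins fall from left to right, most closely for Krt19 at −0.90, and Cldn7 rises.

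The genes most like each member across the 12 libraries were taken from 12240 genes by Pearson's r of log2 CPM, a likeness that includes the differences between groups. Lad1 was most like Fbxo32 (0.97), Bmp2k (0.97) and Pdk4 (0.97), Krt7 most like 3110039M20Rik (0.98), Dgkk (0.98) and Galnt18 (0.97), and Krt19 most like Prkar2b (0.97), Hspa8 (0.96) and Dnaja1 (0.95). Krt18 was most like Snx10 (0.97), Btbd3 (0.97) and Bend4 (0.96). Cldn3 was most like Tm4sf1 (0.93), Slc66a1 (0.90) and Ch25h (0.89), and Cldn7 most like Cnih2 (0.85), Ddrgk1 (0.83) and Pigh (0.83). No member was among the 3 genes most like another member. Across all 12 libraries, Krt7 and Lad1 had r = 0.77, and after subtraction of group means −0.000942.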

How the data were processed

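RNA-seq libraries of WT and RTF2-deficient MEFs were taken as deposited. The deposited values are raw read counts, 1 row per Entrez identifier, with no normalization by the authors. Salmon, tximport and mm10 gene models stand in the study's methods, whereas HTSeq and mm10 stand in the submitters' processing notes, and which counter made the table is not settled. Whether libraries were selected for poly(A) RNA is not given in the sources used here. Columns were matched to samples by label.

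The members, the lists and the rule for names were chosen with earlier results of these data known. The rule took the 10 members, Rtf2, up to 4 called genes of each list by adjusted p (with fewer than 2 called, also its 2 most abundant), and the 3 genes most like each member with a mean of at least 10 counts, among genes with a mean of at least 1 CPM. Lists covered tight junctions, other keratins, desmosomes and hemidesmosomes, epithelial regulators, epithelial surface, mesothelium, fibroblasts, repressors and other cells.

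Symbols came from RefSeq (GRCm38.p6), which held 24045 of 24100 identifiers. In R 4.3.3, edgeR 4.0.16 filtered genes (filterByExpr on 4 groups), normalized by TMM and tested 14263 genes with glmQLFit and glmQLFTest. Both lines were fitted with terms for line and genotype, and other contrasts with 1 term per group. A gene was called at adjusted p under 0.05 (Benjamini-Hochberg, over all genes tested) with a fold beyond 1 on the log2 scale. Standard errors are the coefficient over the square root of F. Fits were tested on simulated data. Alternatives were RLE, no filter, 1 CPM in 6 libraries, DESeq2 1.42.0, a replicate block, no line term, summed triplicates and each library left out. An interferon term and a replicate block in line 1 alone were added after seeing the data. Deviations of same-numbered WT and RTF2-deficient libraries from their group means correlated by at least 0.430 in each of the 3 pairs of line 1, and line 2 showed no such pairing; the labels do not say what a number shares. Libraries of a group were compared by chi-square over genes, which was at least 20.5 per degree of freedom, so each was counted as its own library. Some listed genes are not reported here by name.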

Additional observations from a re-analysis of the deposited data

Results flagged for a closer look

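The effect of genotype on Krt7 differed between the lines, by 4.46 on the log2 scale (line 2 minus line 1, edgeR interaction test, adjusted p = 0.0314). The call was lost in 8 of the 12 fits with 1 library left out, with adjusted p between 0.0541 and 0.0907. Groups of 3 are too small for a test of single outlying values. In 21 sets of 6 values, each a gene in the libraries of one genotype with the lines pooled, 0 held a value set apart from the rest. Differences between the lines widen the range of such a set, so an outlying library could be missed. No conclusion on outlying libraries is drawn from the 0.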

How the results depend on the processing

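The number of the 7 members called moved in few cases. Between RTF2-deficient lines, DESeq2 called 2 members (Krt18 and Cldn3), and leaving out each library in turn gave 0 to 1. For the difference between lines in the effect of genotype it gave 0 to 1. With the interferon score as a term, 2 members were called in line 2 (Krt7 and Krt19) and 4 between RTF2-deficient lines (Krt18, Cldn3, Krt7 and Krt19), while between WT lines the count stayed at 3, with Krt19 in place of Krt8. The cause was not tested.

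The log2 values of uncalled members near 0 changed sign with a library left out. Those of Cldn7 ranged from −0.14 to 0.26 over both lines, −0.29 to 0.26 in line 1, −0.29 to 0.64 in line 2, −0.27 to 0.66 for the interaction, −0.41 to 0.47 between WT lines and −0.091 to 0.61 between RTF2-deficient lines. Those of Krt19 ranged from −0.30 to 0.011, −0.27 to 0.29, −0.68 to 0.037 and −0.67 to 0.046 for the first 4 of these. Epcam ranged from −0.30 to 0.13 in line 2, Krt18 from −0.48 to 0.042 for the interaction and Cldn3 from −0.26 to 0.75 between WT lines. With the interferon term, Cldn7 was at 0.23 in line 1, −1.01 between WT lines and −0.55 between RTF2-deficient lines, and Epcam at 0.024 in line 2.

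Replicate numbers paired the libraries of line 1 and not those of line 2, where same-numbered deviations correlated by −0.587, 0.170 and −0.279. In line 1, Lad1, Cldn4 and Krt18 were higher in the RTF2-deficient library of all 3 pairs, and Cldn3, Krt7 and Epcam were lower. Cldn7, Krt8 and Krt19 were higher in 2 pairs and lower in 1. The pairing was found in these data, and the share of all genes with 3 pairs in one direction is not given here. With a replicate block in line 1 alone, 2 members were called in line 2 (Krt7 and Cldn3) and 2 between RTF2-deficient lines (Krt18 and Cldn3), no other member call changed, and Cldn7 was at −0.014 over both lines. The fold of Cldn3 in line 2 was the same with and without this block, which alters only the shared estimate of spread there. With a replicate block over both lines, 0 members were called over both lines and in line 1, 1 in line 2, 1 for the interaction, 3 between WT lines and 1 between RTF2-deficient lines, and all genes called over both lines numbered 227 against 246. Over both lines, Lad1 stood at 1.49 without the line term, 1.82 with triplicates summed and between 1.62 and 1.98 with a library left out. Cldn4 in line 1 stood at 1.98 without RTF2-deficient line 1 replicate 2, against 2.88. Depth limits Cldn4, Cldn6, Krt8 and Epcam, with at most 36 counts in a library.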
